A study of Mus musculus with 16 samples.

Results

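The 32 genes described here mark T cells and natural killer (NK) cells, and they were taken by name from the 17126 genes that the fat pad and liver tables share. They comprise the T cell receptor complex (Cd3d, Cd3e, Cd3g, Cd247), coreceptors (Cd4, Cd8a, Cd8b1), adhesion and costimulatory molecules (Cd2, Cd5, Cd6, Cd27, Cd28, Thy1) and receptor-proximal signalling (Lck, Zap70, Lat). The others are lineage transcription factors (Tcf7, Lef1, Bcl11b, Tbx21, Eomes), interleukin receptor chains (Il7r, Il2ra, Il2rb), genes of regulatory T cells (Foxp3, Ikzf2), interferon gamma (Ifng), and NK receptors with a cytotoxic granule protein (Ncr1, Klrb1c, Klrk1, Klrd1, Nkg7). Granzymes and checkpoint receptors are not among them.

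RNA was sequenced from tumors of 4T1 cells, a mouse mammary carcinoma line that models triple-negative breast cancer, grown in wild-type female BALB/c mice aged 6 weeks. The groups were 5 liver tumors with paclitaxel (post_Liver), 5 without (pre_Liver), 3 fat pad tumors with paclitaxel (post_SC) and 3 without (pre_SC). Liver tumors came from 200000 cells placed under the liver capsule and fat pad tumors, which the submitters call subcutaneous, from 400000 cells, so the effect of site and that of cell number cannot be told apart. Paclitaxel, which stabilises microtubules, was given into the peritoneum at 10 mg/kg, 5 times a week for 2 weeks, with saline for control mice. Tumors grew for 15 days, and were digested and frozen as mixed cells before poly(A) RNA was taken, so host cells are part of every library. The labels do not say whether the untreated tumors were saline controls of the same age, nor that each library came from its own mouse. A difference after treatment therefore includes any difference in tumor age, and the p-values speak only of the spread among libraries.

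T cells recognise peptides on MHC molecules through an antigen receptor whose signal leaves the cell surface through the CD3 and zeta chains, which Lck phosphorylates and to which the kinase Zap70 then binds before it phosphorylates the adaptor Lat. CD4 marks helper and regulatory T cells and CD8 marks cytotoxic T cells, which with NK cells can kill tumor cells. NK cells carry germline-encoded receptors such as the activating receptor encoded by Ncr1 and share with CD8 T cells the receptors encoded by Klrk1 and Klrd1. Thy1 is a surface glycoprotein of mouse T cells that fibroblasts can also carry, and Il2rb, Eomes and Nkg7 are shared by NK cells and activated CD8 T cells.

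Promoter sequences are shown for the CD3 genes of chromosome 9, which lie together and differed by like amounts between pre_Liver 1 to 3 and pre_SC, and for Nkg7 and Il7r, whose levels relative to Cd3e differed widely between libraries. Cd3g, Cd3d and Cd3e lie within 40.1 kb (chr9:44969572-45009627, GRCm38), and the annotated starts of the divergent genes Cd3g and Cd3d are 1355 bases apart. Each sequence runs 5′ to 3′ from 250 bases before to 50 after the gene's start, from RefSeq on GRCm38.p6. Capitals mark, on either strand, the cores CTTTG (bound by the TCF/LEF factors that Tcf7 and Lef1 encode), TGTGGT (RUNX) and AGGAAG (ETS), which do not overlap one another here.
Cd3d, chr9:44981536-44981835, strand +: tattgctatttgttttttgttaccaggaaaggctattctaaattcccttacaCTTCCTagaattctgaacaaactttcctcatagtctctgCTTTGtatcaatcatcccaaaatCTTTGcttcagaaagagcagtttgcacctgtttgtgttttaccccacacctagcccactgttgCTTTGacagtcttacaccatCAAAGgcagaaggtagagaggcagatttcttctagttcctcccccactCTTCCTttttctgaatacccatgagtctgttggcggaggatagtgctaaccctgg
Cd3e, chr9:45009562-45009861, strand -: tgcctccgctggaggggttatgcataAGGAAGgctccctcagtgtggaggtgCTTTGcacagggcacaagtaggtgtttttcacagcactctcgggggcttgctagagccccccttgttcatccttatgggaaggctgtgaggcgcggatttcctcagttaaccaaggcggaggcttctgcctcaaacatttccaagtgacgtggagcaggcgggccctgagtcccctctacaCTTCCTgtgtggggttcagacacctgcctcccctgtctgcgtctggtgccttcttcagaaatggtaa
Cd3g, chr9:44980382-44980681, strand -: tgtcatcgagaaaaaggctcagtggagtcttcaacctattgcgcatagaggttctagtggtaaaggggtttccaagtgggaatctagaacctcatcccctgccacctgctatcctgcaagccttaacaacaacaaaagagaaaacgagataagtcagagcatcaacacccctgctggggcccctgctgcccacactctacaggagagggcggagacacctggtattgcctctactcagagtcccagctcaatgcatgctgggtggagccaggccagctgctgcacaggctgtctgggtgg
Nkg7, chr7:43436888-43437187, strand +: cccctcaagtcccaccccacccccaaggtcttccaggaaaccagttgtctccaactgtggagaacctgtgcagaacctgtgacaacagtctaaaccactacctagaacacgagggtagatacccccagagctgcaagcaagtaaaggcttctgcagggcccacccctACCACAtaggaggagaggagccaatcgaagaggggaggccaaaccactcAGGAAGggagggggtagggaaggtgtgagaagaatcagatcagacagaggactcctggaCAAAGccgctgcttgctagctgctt
Il7r, chr15:9529827-9530126, strand -: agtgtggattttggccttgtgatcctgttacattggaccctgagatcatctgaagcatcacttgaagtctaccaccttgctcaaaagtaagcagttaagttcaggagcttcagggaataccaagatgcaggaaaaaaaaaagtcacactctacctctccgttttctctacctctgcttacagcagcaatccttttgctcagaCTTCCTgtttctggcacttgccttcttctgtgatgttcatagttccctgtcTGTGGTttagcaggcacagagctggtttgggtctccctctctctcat
The Cd3d promoter held 4 matches to CTTTG and 2 to AGGAAG, and that of Cd3e 1 and 2. None of these letters occurred in the Cd3g window. The Nkg7 window held each core once, and the Il7r window held 1 TGTGGT and 1 AGGAAG. Of 32 RefSeq promoters matched to 23 of the member genes, 21 held CTTTG, 9 held TGTGGT and 17 held AGGAAG. Among all 32851 promoters the shares were 53.9%, 16.8% and 35.4%, and these matches of a few letters are descriptions and not binding sites.

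Values are TPM, transcript levels corrected for gene length and scaled to 1 total per library, recomputed over the shared genes so that the tables of both sites are on 1 scale. The sequencing depth behind the values is unknown. Liver-enriched genes took 1.63% to 28.4% of TPM in post_Liver, 10.7% to 45.4% in pre_Liver and at most 0.431% in the fat pad libraries, so RNA of host liver makes up a varying part of the liver libraries. It was highest in pre_Liver 4 and 5 (45.4% and 44.6%), whose values in the authors' table of untreated samples carry the opposite shift to pre_Liver 1 to 3. Within pre_Liver, these libraries had the lowest value for 24 and 7 of the 32 members. In the fat pad, post_SC 2 had the highest value of its group for 25 members, and in liver post_Liver 5 had the highest of its group for 28. The main counts of called members are given with these libraries and as ranges with 1 library left out, and some values are also given without them. Of the alternative scalings, only that to pan-leukocyte genes was also run without some of them, for the fat pad and liver responses.

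All 32 genes were detected above 0 in every library, the defining markers Cd3e, Cd8a, Foxp3 and Ncr1 included. Cd3e, the epsilon chain of the receptor complex, was at 10.8, 5.01, 6.25, 14 and 27 TPM in post_Liver and 35.3, 21.97, 26, 6.37 and 8.22 TPM in pre_Liver. In the fat pad it was at 6.38, 14.8 and 5.13 TPM in post_SC and 7.48, 8.64 and 5.48 TPM in pre_SC. The first 3 pre_Liver libraries and post_Liver 5 stood above all fat pad libraries, and pre_Liver 4 and 5 lay within the fat pad range.

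Cd8a, a chain of the coreceptor of cytotoxic T cells, was at 16.2, 12.9, 9.68, 13.6 and 49.4 TPM in post_Liver and 25.6, 16.6, 34.0, 8.24 and 7.47 TPM in pre_Liver. It was at 11.3, 24.4 and 12.2 TPM in post_SC and 12.3, 7.30 and 6.42 TPM in pre_SC. Post_Liver 5 and post_SC 2 were the highest of their groups, and the ranges of all 4 groups overlapped.

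Foxp3, the transcription factor that defines regulatory T cells, was near the lower end of the members. Its levels were 0.846, 0.977, 0.424, 1.66 and 1.65 TPM in post_Liver and 4.34, 2.95, 1.35, 0.913 and 1.03 TPM in pre_Liver. In post_SC it was at 0.661, 0.419 and 0.386 TPM, and in pre_SC at 1.26, 1.56 and 1.26 TPM. The fat pad groups did not overlap, and the liver groups did.

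Ncr1, which encodes the NK receptor NKp46, was at 2.28, 2.06, 2.49, 1.81 and 1.51 TPM in post_Liver and 4.99, 6.40, 1.98, 0.893 and 2.17 TPM in pre_Liver. It was at 1.28, 1.52 and 0.443 TPM in post_SC and 2.53, 1.89 and 2.13 TPM in pre_SC. Pre_Liver 1 and 2 were the highest, and the fat pad groups did not overlap. Klrb1c, whose product NK1.1 is not recognised by the usual antibody in BALB/c mice, had group medians of 0.627 TPM in post_Liver, 0.615 TPM in pre_Liver, 0.472 TPM in post_SC and 1.46 TPM in pre_SC. It belongs to a family of closely related genes among which the authors' quantification could have split reads, so its values are uncertain.

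The highest members were Thy1, Nkg7, Cd3g, Il2rb and Cd8b1, and the lowest were Klrb1c, Foxp3, Bcl11b and Cd28. The summed level of the members without Thy1 was 222.6 to 684.3 TPM in post_Liver, 154.6 to 556.1 TPM in pre_Liver, 191.9 to 359.8 TPM in post_SC and 196.6 to 249.1 TPM in pre_SC. Sums in the liver groups spread over a wider range than those in the fat pad groups.

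**Figure D1:**
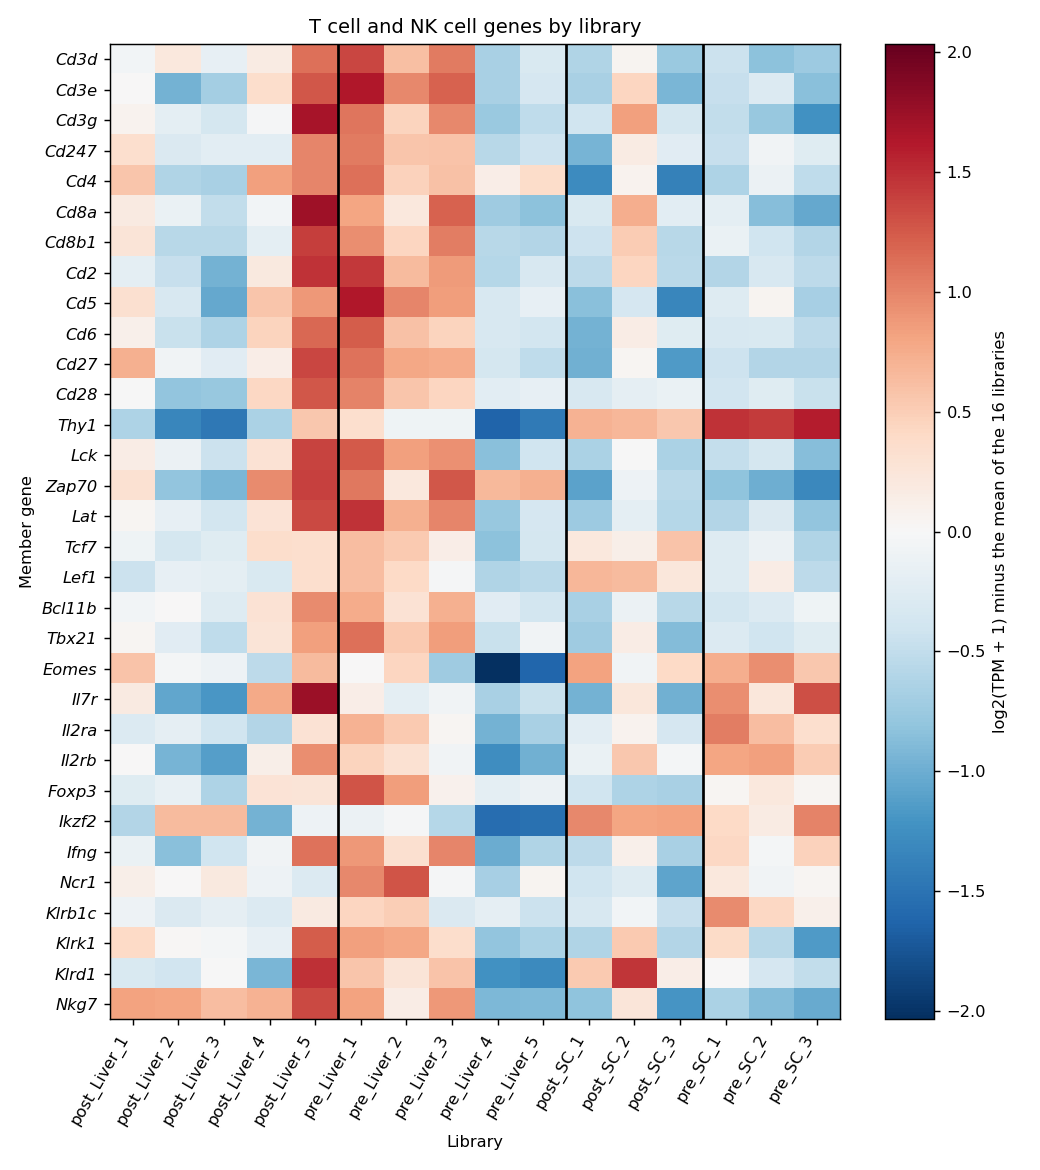
Level of each of the 32 genes (rows, by role) in each library (columns), as log2(TPM + 1) minus the gene's mean over the 16 libraries. Most rows are high together in post_Liver 5 and pre_Liver 1 to 3 and low in pre_Liver 4 and 5, while Ikzf2 and Eomes follow another pattern. Thy1 is higher in every fat pad library than in every liver library.

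**Figure D2:**
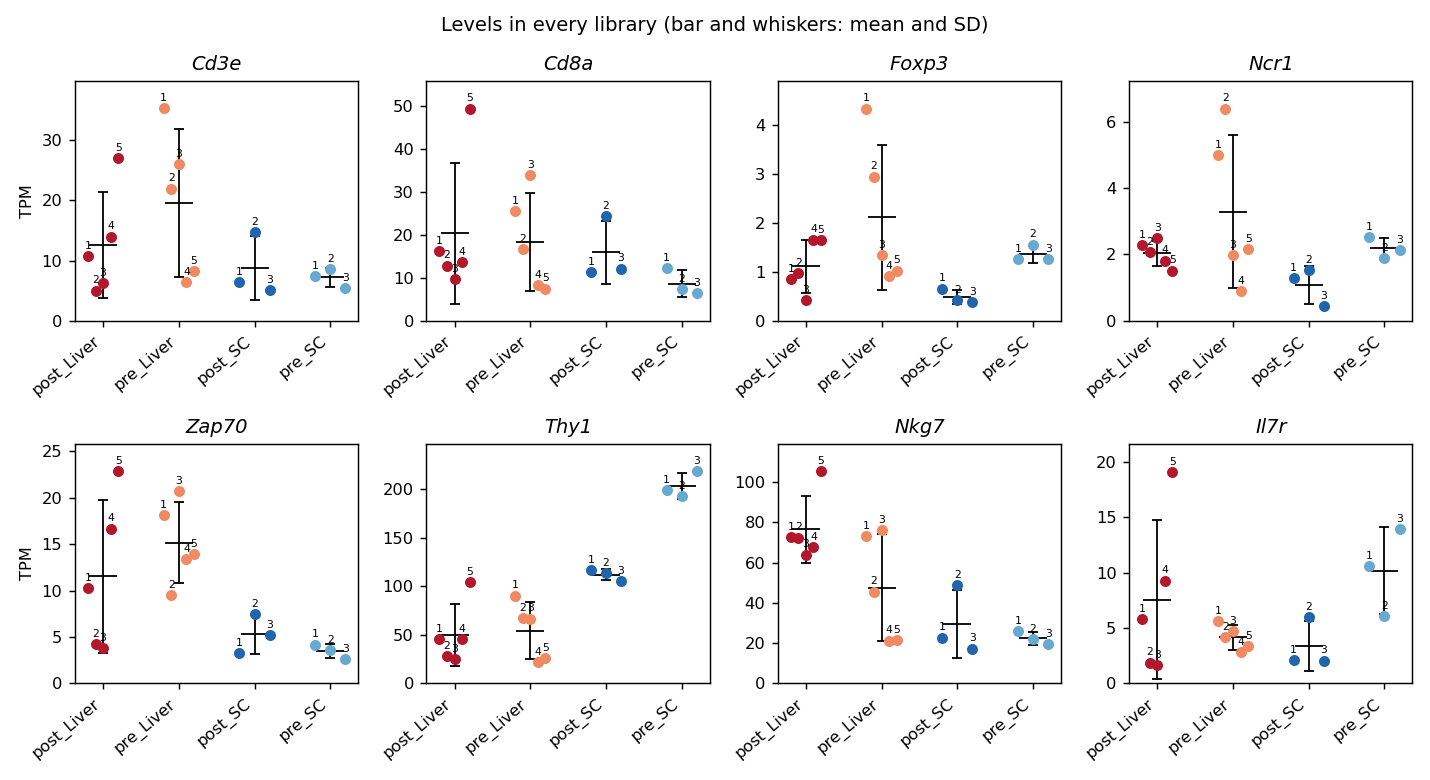
TPM of 8 genes in every library, with points numbered by replicate, and the mean and SD of each group (n = 5, 5, 3 and 3). Thy1 is highest in the pre_SC libraries at 192.5 to 218.1 TPM, and the highest value of Nkg7 is 105.6 TPM in post_Liver 5.

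The members did not all follow the receptor complex. The ratio of Cd2 to Cd3e, an adhesion molecule of T and NK cells set against the receptor chain, spanned 1.87-fold over the 16 libraries, the least of the 31 other members. The ratio spanned 2.34-fold for Cd8b1, 2.66-fold for Lck and 2.77-fold for Cd3g. It spanned 17.5-fold for Ikzf2, 15.6-fold for Il7r, 15.3-fold for Thy1, 15.3-fold for Klrb1c and 13.5-fold for Eomes. It spanned 3.92-fold for Cd3d and 4.98-fold for Zap70, within the T cell signalling genes. Within the 10 liver libraries alone the ratio to Cd3e spanned 14.5-fold for Ikzf2, 8.89-fold for Eomes, 5.05-fold for Klrb1c and 4.4-fold for Il7r. For Thy1 it spanned only 2.13-fold there, so its wide span came with the fat pad libraries. These ratios are descriptions over libraries of 4 groups, and other cells that carry a gene enter them.

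Liver and fat pad tumors differed without treatment in 6 of the 32 members (18.8%), a smaller share than the 47.6% of all genes that were called. All 32 passed the filter of a mean of at least 1 TPM. Ranges of pre_Liver and pre_SC were apart for 3 members that were higher (Zap70, Cd4 and Cd28, 16.6% of all genes) and 5 that were lower (Thy1, Eomes, Il7r, Il2rb and Ikzf2, 34.9%). By the test, Zap70 and Cd4 were higher in pre_Liver than in pre_SC (14.9% of genes tested were called higher), and Thy1, Il7r, Ikzf2 and Eomes were lower (32.7% were called lower). In bulk RNA, fewer cells of a type and less RNA per cell cannot be told apart. The test was limma on log2(TPM + 1), with genes called where the Benjamini-Hochberg adjusted p over all genes was under 0.05. By limma 10 members had an unadjusted p under 0.05. Such counts are given here and below without the share of all genes, so they are not read as results about the members. The median log2 difference was 0.59 for the members and −0.51 for all genes tested.

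Zap70 (chr1:36761798-36782818, GENCODE annotation of GRCm38), the kinase recruited to the phosphorylated receptor chains, was at 18.2, 9.56, 20.8, 13.4 and 13.96 TPM in pre_Liver and 4.18, 3.57 and 2.65 TPM in pre_SC. The groups did not overlap, and pre_Liver 4 and 5, where most members were low, were as high as the others. The log2 difference was 1.83 ± 0.26 (SE, limma, adjusted p = 0.00152), and it was called in all alternatives run. The ratio of Zap70 to Cd3e was 0.438 to 2.09 in pre_Liver and 0.420 to 0.565 in pre_SC. It was highest in pre_Liver 4 and 5, where Cd3e was the lowest of the group (6.37 and 8.22 TPM). Liver-enriched genes took the largest share of TPM there (45.4% and 44.6%), and their part in the Zap70 ratio was not tested.

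Cd4, the coreceptor of helper T cells that some macrophages and dendritic cells can also carry, was at 12.97, 7.91, 8.76, 6.05 and 7.32 TPM in pre_Liver and 3.17, 4.90 and 3.49 TPM in pre_SC. Each pre_Liver library was above each pre_SC library. The log2 difference was 0.96 ± 0.25 (SE, limma, adjusted p = 0.0197). The difference was 1.48 without liver-enriched genes and 1.51 in the untreated table as deposited. The call ended without pre_SC 1 (adjusted p = 0.0852 by limma) or pre_SC 3 (0.0745) and in 1 fit of the 4 groups (0.0667), within a range of 0.00172 to 0.0852 over the alternatives.

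Thy1 (chr9:44043384-44048579) was at 90.4, 66.98, 66.6, 22.3 and 25.7 TPM in pre_Liver and 199.0, 192.5 and 218.1 TPM in pre_SC, without overlap. Its log2 difference was −2.08 ± 0.46 (SE, limma, adjusted p = 0.0108), and the call held in all alternatives run. Thy1 was the member farthest from the T cell receptor genes here, with a ratio to Cd3e of 2.56 to 3.47 in pre_Liver and 22.0 to 39.1 in pre_SC. The summed level of 8 fibroblast genes was 1423 to 3360 TPM in pre_Liver and 1527 to 2228 TPM in pre_SC, with Dcn and Lum higher in pre_Liver and none called lower, and their part in the Thy1 difference was not tested.

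Il7r, the alpha chain of the receptor through which naive and memory T cells receive survival signals, was at 5.60, 4.21, 4.75, 2.82 and 3.39 TPM in pre_Liver and 10.6, 6.05 and 13.9 TPM in pre_SC. The groups did not overlap, and the log2 difference was −1.08 ± 0.29 (SE, limma, adjusted p = 0.0209). The call ended without pre_SC 1 (adjusted p = 0.0822 by limma) or pre_SC 3 (0.0855), without pre_Liver 4 and 5 together (0.0526) and in 1 fit of the 4 groups (0.108), within a range of 0.0118 to 0.108. It also ended without liver-enriched genes (log2 difference −0.61, limma adjusted p = 0.0943) and with median of ratios scaling (−0.62, 0.0771). Ikzf2, which encodes Helios of regulatory T cells, differed by −1.28 ± 0.42 (SE, limma, adjusted p = 0.0375). Eomes, a T-box factor of NK and CD8 T cells, differed by −1.53 ± 0.54 (SE, limma, adjusted p = 0.0465). The calls of Ikzf2 and Eomes ended when any 1 of pre_Liver 3, 4 or 5 or of the 3 pre_SC libraries was left out, with adjusted p by limma up to 0.128 for Ikzf2 and 0.123 for Eomes over the alternatives. Both calls also ended with pre_Liver 1 to 3 alone (log2 difference −0.77 for Ikzf2 and −0.84 for Eomes), without liver-enriched genes, with median of ratios scaling and with a pseudocount of 0.1 TPM, and that of Eomes with no filter. Eomes was at 0.973 and 1.66 TPM and Ikzf2 at 0.655 and 0.685 TPM in pre_Liver 4 and 5, the lowest values of both genes in any library. The summed level of 8 carcinoma epithelium genes was 2064, 3029, 1259, 580.4 and 669 TPM in pre_Liver 1 to 5 and 4714 to 5184 TPM in pre_SC. All 8 were called lower in pre_Liver, where 32.7% of all genes were. The part of tumor cell RNA in the Ikzf2 and Eomes differences was not tested.

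The picture for the receptor genes turned on pre_Liver 4 and 5. With pre_Liver 1 to 3 alone, which the authors' untreated table shifts together with the fat pad libraries, 20 members were called higher than in pre_SC (14.2% of all genes tested) and 1, Thy1, lower (20.1%). The median was then 1.07 for the members and −0.30 for all genes. The CD3 chains differed by 1.80 ± 0.24 for Cd3e, 1.69 ± 0.24 for Cd3d, 1.68 ± 0.25 for Cd3g and 0.99 ± 0.22 for Cd247 (log2, SE, 3 against 3 libraries, limma adjusted p of 0.00191 to 0.0147). Lck differed by 1.57 ± 0.21, Lat by 1.63 ± 0.25, Cd27 by 1.42 ± 0.20, Cd8a by 1.44 ± 0.32 and Nkg7 by 1.46 ± 0.23, all called higher. Il7r, Ikzf2, Eomes, Il2rb, Il2ra and Klrb1c had values below 0 and were not called, and Foxp3 (0.64 ± 0.31, limma adjusted p = 0.135) and Ncr1 (0.68 ± 0.34, adjusted p = 0.143) were not called either.

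The scale mattered in the same way. When TPM was recomputed without the 679 liver-enriched genes, with all 5 pre_Liver libraries, 18 members were called higher (21.1% of all genes) and 1, Thy1, lower (14.3%). Cd3e then differed by 1.62 ± 0.44 (log2, SE, limma adjusted p = 0.0242). Scaling by the median of ratios moved the median of all genes to −0.01 and called 19 members higher and 1 lower, where 23.1% of all genes were called higher and 18% lower. Relative to 6 pan-leukocyte genes, 14 members were called higher (12.3%) and 5 lower (34.7%). Quantile normalization also called 14 higher (17.4% of all genes) and 5 lower (31.7%). In the authors' untreated table as deposited, where 14 members had a value below 0 in a pre_SC library, 23 were called higher (18.7%) and 5 lower (38.9%). Hepatocyte genes moved with these results, since the summed level of 12 of them was 66560, 37410, 99210, 153800 and 154400 TPM in pre_Liver 1 to 5, against 77.8 to 173.4 TPM in pre_SC, and their part in the counts was not tested beyond these scalings.

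**Figure D3:**
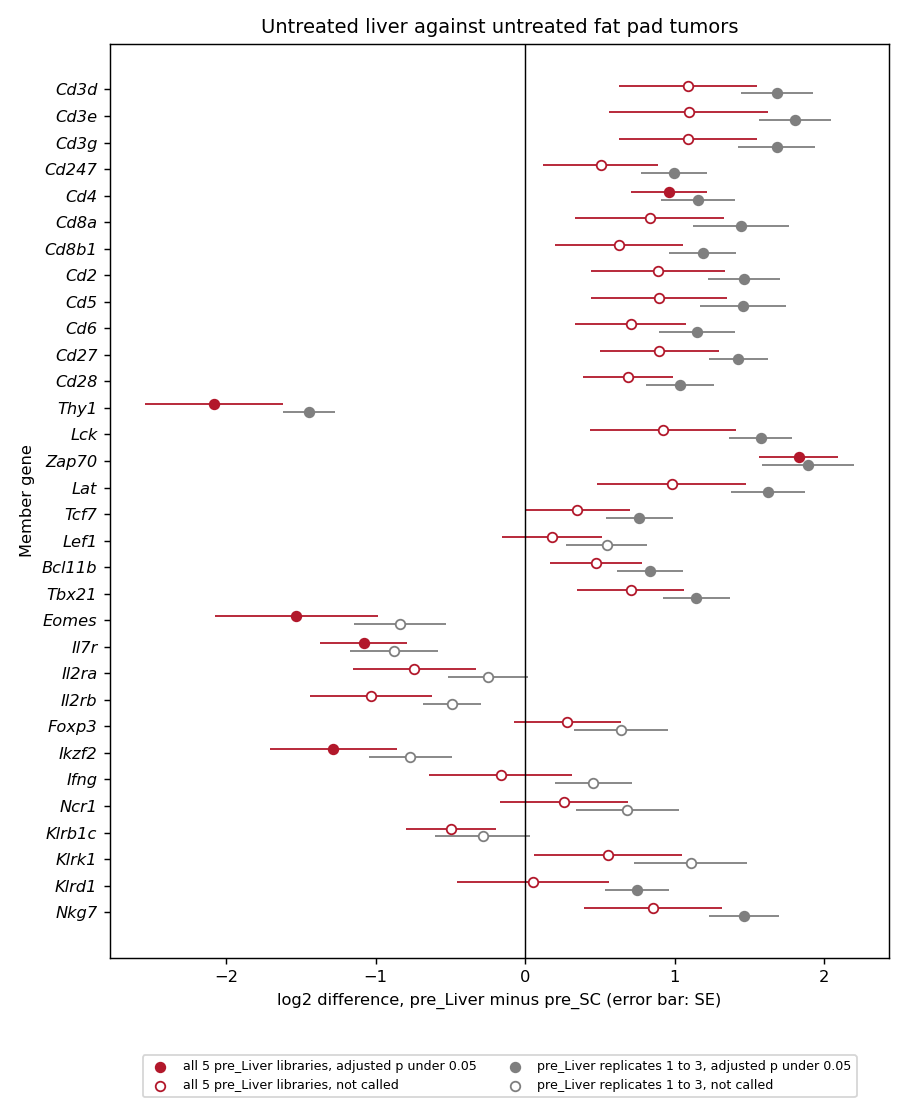
Log2 difference of pre_Liver minus pre_SC for each gene with its SE, with all 5 pre_Liver libraries (red) and with pre_Liver 1 to 3 (grey), filled where called. Most T cell receptor genes move to the right and become called without pre_Liver 4 and 5, while Zap70 and Thy1 are called in both.

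Counts of other lists are read against the 14.9% of all genes called higher and the 32.7% called lower. Of 24 further T cell receptor signalling genes, 22 were tested, 5 were higher in pre_Liver (among them Fyn, a Src family kinase, and Ptprcap, a partner of CD45) and 2 were lower (Plcg1 and Malt1, both used beyond lymphocytes). Of 22 genes of T cell differentiation and homing, 21 were tested, 3 were higher (S1pr1 first by p) and 2 lower (Tnfrsf9 and Gata3). Of 20 further NK and innate lymphoid genes, 17 were tested, 4 were higher (Cd7 and S1pr5 first) and 3 lower (Il18rap and Il1rl1 first). Of the B cell genes 5 of 7 tested were called higher (Cd79b and Cd79a first), with summed levels of 20.3 to 121.1 TPM in pre_Liver and 4.83 to 7.32 TPM in pre_SC.

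In the fat pad, paclitaxel-treated tumors differed in 1 of 29 members tested, a share of 3.45% against 6.99% of all genes. Thy1 was lower in post_SC than in pre_SC (4.35% of all genes were called lower), and none was higher (2.64% of all genes). Cd28, Bcl11b and Foxp3 were below the filter. The median log2 change was 0.06 for the members and −0.03 for all genes, and 10 members had an unadjusted p under 0.05 by limma.

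Thy1 was at 116.7, 113.8 and 105.2 TPM in post_SC and 199.0, 192.5 and 218.1 TPM in pre_SC. Each treated library was below each untreated one, with a log2 change of −0.85 ± 0.10 (SE, limma, adjusted p = 0.0104). The call ended without pre_SC 1 (adjusted p = 0.0518 by limma) or pre_SC 3 (0.0550) and in 1 fit of the 4 groups (0.618), within a range of 0.01 to 0.618. None of the 8 fibroblast genes was called, and their summed level was 1309 to 1773 TPM in post_SC and 1527 to 2228 TPM in pre_SC.

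Ranges of post_SC and pre_SC were apart for 9 of the 29 members tested, with NK receptor genes in both directions. Cd3g, Tcf7, Lef1 and Klrd1 were higher in every post_SC library than in every pre_SC library (4 of 29, where 15.9% of all genes did so), and Thy1, Il7r, Il2ra, Ncr1 and Klrb1c were lower (5 of 29, and 18.8% of all genes), shares near those of all genes. Lef1, a TCF/LEF factor of naive and memory-like T cells, was at 3.13, 3.04 and 2.02 TPM in post_SC and 1.15, 1.87 and 0.782 TPM in pre_SC, a log2 change of 0.73 ± 0.27 (SE, limma, adjusted p = 0.132). Tcf7, its paralog, changed by 0.64 ± 0.20 (adjusted p by limma = 0.0977), and neither was called. Klrd1, the CD94 chain of NK and CD8 T cell receptors, changed by 0.99 ± 0.34 (adjusted p by limma = 0.114), and by 0.62 ± 0.24 without post_SC 2 (0.153). Cd3g changed by 0.86 ± 0.35 (adjusted p by limma = 0.169), and by 0.45 ± 0.24 without post_SC 2 (0.256).

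The interleukin receptor chains had values below 0. Il7r was at 2.10, 6.01 and 2.06 TPM in post_SC and 10.6, 6.05 and 13.9 TPM in pre_SC, a log2 change of −1.40 ± 0.40 (SE, limma, adjusted p = 0.0777). The groups were apart only by the gap between 6.01 TPM in post_SC 2 and 6.05 TPM in pre_SC 2. Il2ra, the high-affinity interleukin-2 receptor chain of activated and regulatory T cells, changed by −0.84 ± 0.24 (adjusted p by limma = 0.0767) and Il2rb by −0.59 ± 0.21 (0.119). Without post_SC 2, in which most members were highest, Il7r (−1.80 ± 0.33, limma adjusted p = 0.0325) and Il2rb (−0.81 ± 0.16, adjusted p = 0.0387) were called lower beside Thy1 (0.0193), where 4.12% of all genes were called lower and 1.86% higher. With no filter on low values Foxp3 was called lower, by 0.67 ± 0.12 on the log2(TPM + 1) scale (SE, limma, adjusted p = 0.0414).

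Relative to the pan-leukocyte genes, whose sum was 525.0 to 710.6 TPM in post_SC and 680.9 to 794.3 TPM in pre_SC, 4 members were called higher and none lower, where 10.6% of all genes were called higher and 1.12% lower. They were Klrd1 (1.35 ± 0.28), Lef1 (1.10 ± 0.26), Cd3g (1.22 ± 0.32) and Cd8a (1.14 ± 0.31), with limma adjusted p of 0.0297 to 0.0484. Thy1 was not called on that scale (0.0946). Without post_SC 2 on the same scale, a choice made after seeing the data, Klrd1 was the 1 member called (1.04 ± 0.22, limma adjusted p = 0.0443, where 5.12% of all genes were called higher and 0.736% lower), and Lef1, Cd3g and Cd8a had adjusted p of 0.0640 to 0.0879. Among further genes, none of 20 T cell receptor signalling genes and 14 NK and innate lymphoid genes tested was called by limma, while S1pr1 was higher and Tnfrsf9 and Il21r were lower among 21 differentiation and homing genes tested.

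In the liver, none of 31 members tested was called between post_Liver and pre_Liver, where 3.19% of all genes were (2.21% higher and 0.981% lower). By limma 1 member had an unadjusted p under 0.05, Klrb1c was below the filter, and no member's groups were separate (5.13% of all genes were separate and higher, 1.38% separate and lower). The median log2 change was −0.12 for the members and 0.39 for all genes. The changes lay between −0.60 and 0.89 with SE of 0.28 to 0.54, so changes of about that size were not detectable at this spread.

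Nkg7 (chr7:43437073-43438249), a membrane protein of cytotoxic granules in NK and CD8 T cells, was at 72.9, 72.5, 64.0, 67.9 and 105.6 TPM in post_Liver and 73.1, 45.6, 76.1, 21.3 and 21.5 TPM in pre_Liver. The post_Liver libraries were alike except post_Liver 5, and pre_Liver 1 and 3 lay within their range. The log2 change of 0.86 ± 0.38 (SE, limma, adjusted p = 0.151) had the lowest p of the members. Cd3e changed by −0.56 ± 0.54 (limma adjusted p = 0.422) and Foxp3 by −0.48 ± 0.32 (0.283).

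Without pre_Liver 4 and 5, a choice made after seeing the data, no member was called by limma, where 79 of all 13653 genes tested were. By limma 7 members had an unadjusted p under 0.05. The median was −0.63 for the members and 0.15 for all genes. Cd3e then changed by −1.28 ± 0.48 (SE, limma, adjusted p = 0.391). These 7, Cd3e, Il2ra, Foxp3, Ncr1, Cd5, Tbx21 and Cd3d, all had values below 0.

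Relative to the 6 pan-leukocyte genes, 19 members were called lower in post_Liver and none higher, where 16.7% of all genes were called lower and 0.435% higher. The pan-leukocyte sum itself was 1046 to 1635 TPM in post_Liver and 399.6 to 963.6 TPM in pre_Liver, without overlap. Of its genes Arhgdib was called higher. Foxp3 changed by −1.36 ± 0.27 (log2, SE, limma, adjusted p = 0.0116), Cd3e by −1.45 ± 0.38 (0.0227), Cd4 by −1.20 ± 0.30 (0.0208), Cd5 by −1.40 ± 0.31 (0.0152) and Ncr1 by −1.22 ± 0.33 (0.0269). On the same scale without pre_Liver 4 and 5, a choice made after seeing the data, no member was called by limma. Of all genes 0.19% were called lower and 0.176% higher. By limma 27 members had an unadjusted p under 0.05, a count given without the share of all genes. The median was −1.19 for the members and −0.41 for all genes, which shifted down as well. Without post_Liver 5 instead, 21 members were called lower and none higher (9.69% and 0.592% of all genes). In TPM, all 8 neutrophil genes were called higher in post_Liver, where 2.21% of all genes were. Their sum was 10840, 20250, 13880, 11030 and 3090 TPM in post_Liver and 357.6, 394.3, 168.2, 1370 and 176.1 TPM in pre_Liver. Within post_Liver the pan-leukocyte sum was lowest in post_Liver 2 and 3 (1186 and 1046 TPM), where the neutrophil sum was highest. Post_Liver 5, with the lowest neutrophil sum of its group, had the highest T and NK gene sum of all libraries, and the part of neutrophils in the 19 calls was not tested. The ratio of Cd3e to Ptprc, the leukocyte gene for CD45, was 0.170, 0.108, 0.151, 0.299 and 0.376 in post_Liver and 0.675, 0.472, 0.709, 0.228 and 0.397 in pre_Liver, so that the groups overlapped through pre_Liver 4, and pre_Liver 5 lay just above the highest post_Liver library.

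**Figure D4:**
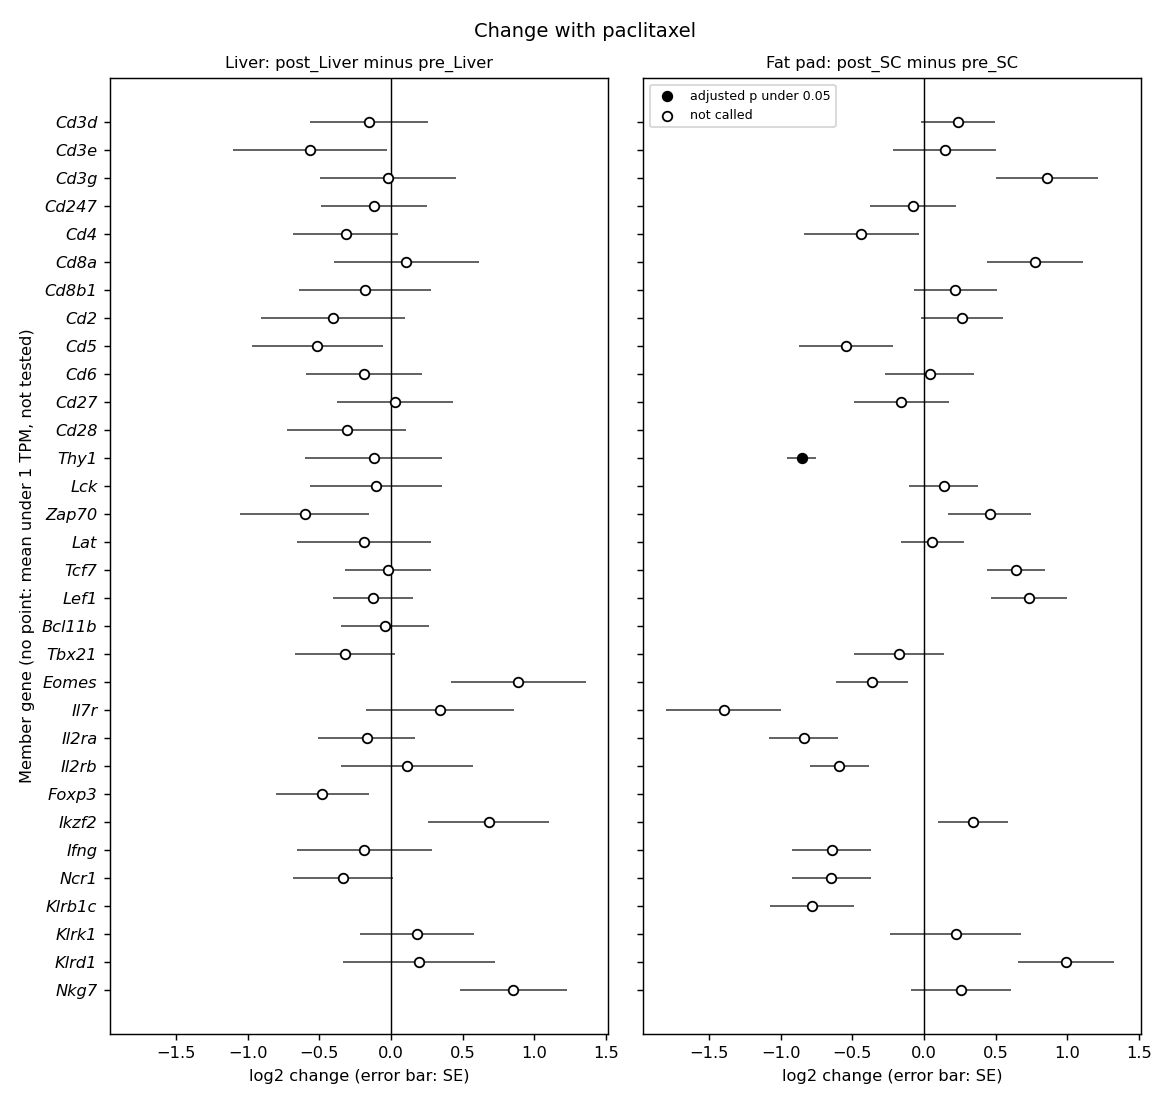
Log2 change with paclitaxel and its SE for each gene, in liver (left) and fat pad (right), filled where called at an adjusted p under 0.05. Thy1 in the fat pad is the 1 filled point, Il7r lies lowest in the fat pad at −1.40, and Nkg7 and Eomes lie highest in the liver at 0.86 and 0.89.

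Of 23 further T cell receptor signalling genes and 17 NK and innate lymphoid genes tested, none was called by limma in the liver.

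Between treated tumors of both sites, Nkg7 was the 1 member of 30 called (3.33%, against 9.43% of all genes). It was higher in post_Liver than in post_SC (6.65% of all genes were called higher) and no member was lower (2.77%). Foxp3 and Klrb1c were below the filter, and 5 members had an unadjusted p under 0.05 by limma. The median log2 difference was 0.42 for the members and −0.07 for all genes.

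Nkg7 was at 72.9, 72.5, 64.0, 67.9 and 105.6 TPM in post_Liver and 22.8, 48.9 and 17.3 TPM in post_SC. The groups did not overlap, and the log2 difference was 1.45 ± 0.32 (SE, limma, adjusted p = 0.0249). The call ended without post_Liver 1 (adjusted p = 0.0617 by limma), post_Liver 5 (0.0515), post_SC 1 (0.114) or post_SC 3 (0.117), and relative to pan-leukocyte genes (0.356), within a range of 0.00823 to 0.356. Besides Nkg7, Thy1 and Ikzf2 were separate and lower in post_Liver (14.1% of all genes were separate and higher, 13.7% separate and lower). Thy1 differed by −1.35 ± 0.41 on the log2 scale (SE, adjusted p by limma = 0.0741), and without post_Liver 5 it was called lower (−1.66 ± 0.26, adjusted p = 0.00932).

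Relative to pan-leukocyte genes, 8 members were called lower in post_Liver and none higher, where 68.4% of all genes were called lower and 3.81% higher. They were Thy1, Lef1, Tcf7, Il2rb, Ikzf2, Eomes, Klrd1 and Il2ra, and no CD3 gene was among them. The pan-leukocyte sum was 1046 to 1635 TPM in post_Liver and 525.0 to 710.6 TPM in post_SC, and 4 of its 6 genes were called higher. Of 22 further T cell receptor signalling genes tested, 5 were higher (Fyb and Vav1 first, both shared with myeloid cells, where 6.65% of all genes were called higher) and none was lower by limma.

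The change with paclitaxel was not shown to differ between sites for any of 31 members tested (limma, difference of the liver and fat pad changes in 1 fit of 16 libraries), where 3.02% of all genes were called (2.23% higher and 0.795% lower). By limma 1 member, Il7r, had an unadjusted p under 0.05, with a difference of 1.74 ± 0.78 (log2, SE, adjusted p = 0.187). Il7r was at 5.84, 1.88, 1.64, 9.29 and 19.1 TPM in post_Liver, against 5.60, 4.21, 4.75, 2.82 and 3.39 TPM in pre_Liver. The post_Liver libraries lay on both sides of the pre_Liver range. Without pre_Liver 4 and 5 no member was called, where 154 of all 13743 genes tested were. By limma 5 members then had an unadjusted p under 0.05. Relative to pan-leukocyte genes 15 members were called lower (22% of all genes) and none higher (0.46%). Among them were Lef1 (−2.10 ± 0.40, log2, SE, limma, adjusted p = 0.00738), Tcf7 (−1.90 ± 0.40, 0.0117) and Cd3g (−2.12 ± 0.55, 0.0209). The 6 pan-leukocyte genes themselves had a median difference of responses of 1.36 in TPM, with Lcp1 called higher. Their part in the 15 calls was not tested, and this scale was not run with libraries left out for the difference of responses.

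Ratios of 2 genes within a library do not move when RNA of other cells that lack both is added. The ratio of Cd8a to Cd4 was 6.52, 4.16 and 7.74 in post_SC and 3.78, 1.48 and 1.82 in pre_SC. The groups did not overlap, and the difference of mean log2 ratios was 1.46 (exact two-sided permutation test, p = 0.1, the smallest that 3 against 3 allows, adjusted p = 0.24 over 12 comparisons). In liver the ratio was 1.90, 3.92, 3.08, 1.30 and 4.15 in post_Liver and 1.97, 2.09, 3.85, 1.36 and 1.02 in pre_Liver, which overlapped (difference 0.50, exact permutation p = 0.333, adjusted p = 0.571). Between treated tumors the ratio was lower in each post_Liver library than in each post_SC library (difference −1.18, exact permutation p = 0.0357, adjusted p = 0.214).

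The ratio of Foxp3 to Cd3e was 0.117, 0.0348 and 0.0929 in post_SC and 0.179, 0.190 and 0.245 in pre_SC. Each treated library was below each untreated one, with a difference of −1.49 (log2, exact permutation p = 0.1, adjusted p = 0.24). The difference was −0.96 without post_SC 2, the lowest library, and −0.81 with a pseudocount of 1 TPM. The ratio was 0.126, 0.138, 0.0554, 0.157 and 0.136 in pre_Liver, below every pre_SC library, with a difference of −0.81 (log2, exact permutation p = 0.0357, adjusted p = 0.214) and of −1.04 with pre_Liver 1 to 3 alone. Pre_Liver 3 stood far below the other pre_Liver libraries and is part of both differences. With 1 library left out, the difference from pre_SC was −0.92 to −0.55. Ncr1 to Cd3e was 0.214, 0.109 and 0.104 in post_SC and 0.348, 0.228 and 0.399 in pre_SC, also separate (difference −1.24, exact permutation p = 0.1, adjusted p = 0.24). None of the 12 ratio comparisons passed the adjusted threshold. With 5 against 5 libraries the smallest exact two-sided permutation p is 0.00794. With 5 against 3 it is 0.0357, the value of both separate ratios above. In none of the liver responses did a ratio reach an unadjusted p under 0.05.

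Nkg7 to Cd3e, a ratio looked at after its values were seen and not tested, was 6.70, 14.2, 10.1, 4.82 and 3.90 in post_Liver and 2.07, 2.07, 2.92, 3.31 and 2.59 in pre_Liver. It was 3.53, 3.29 and 3.33 in post_SC and 3.44, 2.51 and 3.54 in pre_SC. All post_Liver libraries were above all libraries of the other groups, and the spread among the others was small. The ratio was highest in post_Liver 2 and 3, where Cd3e was the lowest of the group (5.01 and 6.25 TPM). The neutrophil sum was the highest in the same libraries (20250 and 13880 TPM), and its part in the ratio was not tested.

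**Figure D5:**
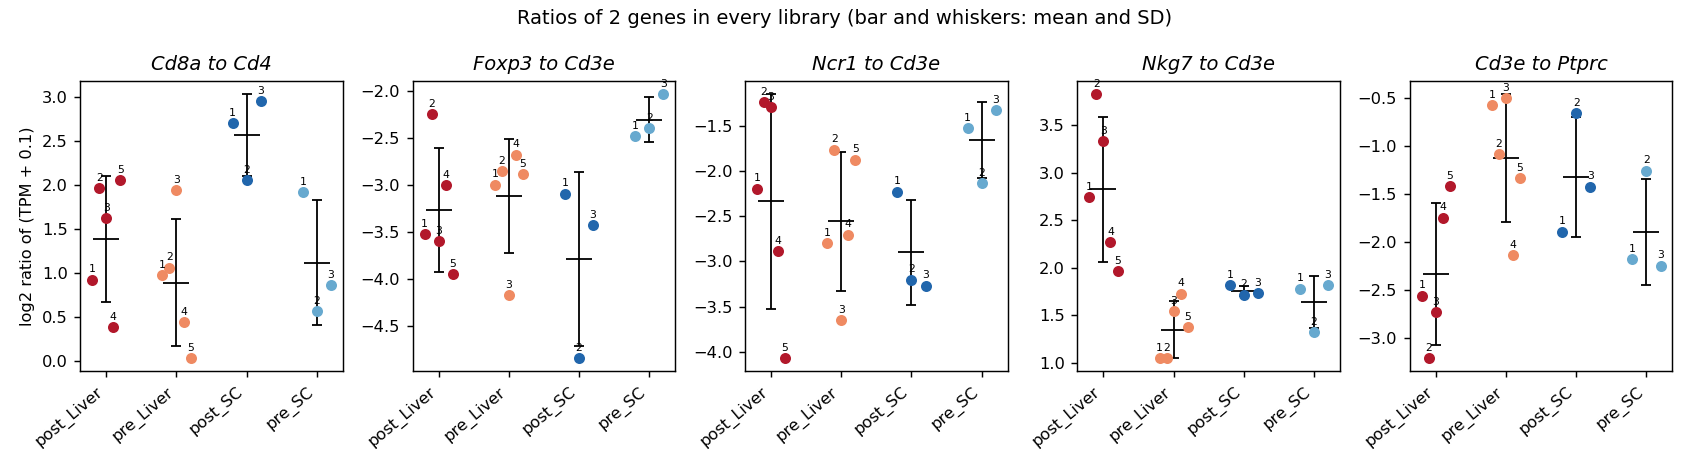
Log2 ratio of a pair of genes, each as TPM + 0.1, in every library, with points numbered by replicate and the mean and SD of each group (n = 5, 5, 3 and 3). Cd8a to Cd4 is higher in all post_SC libraries than in all pre_SC libraries, and Nkg7 to Cd3e is highest in the 5 post_Liver libraries.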

How the data were processed

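Per the submitters' processing notes, fastp and StringTie were used with the build GRCm38/mm10, and neither role nor version is given. None of the 3 deposited tables states its unit, which was read from the values. The liver table holds FPKM and the fat pad table TPM, as deposited by the authors. The deposited untreated table holds a score, TPM plus a constant for each gene that has 1 sign in pre_SC and pre_Liver 1 to 3 and the other in pre_Liver 4 and 5 (2376 genes have values below 0), so it served only as an alternative. Depth cannot be recovered, so no counting intervals are given.

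TPM was computed over 17126 genes shared by the liver and fat pad tables. Names turned into dates (24 in the fat pad table) and 1 name on 2 rows were left out, and 62 hyphens were restored. Genes with a mean of at least 1 TPM were tested as log2(TPM + 1), which understates changes of low genes, in limma 3.58.1 (R 4.3.3, lmFit and eBayes with a trend), with group as the 1 term and Benjamini-Hochberg adjustment at 0.05. Each comparison had its own fit of its groups, and the difference of responses 1 fit of all 16 libraries. Ratios used a pseudocount of 0.1 TPM. Liver-enriched genes are the 679 whose pre_Liver mean exceeded 10 times the sum of the pre_SC mean and 0.1 TPM, a rule that uses the site difference itself. Post_Liver 2 and 3 were the most alike (0.701% of genes over 2-fold apart) and were kept as separate samples. The fits were tested on simulated data. Python 3.11.15, pandas 2.3.3, NumPy 2.4.6, SciPy 1.17.1 and matplotlib 3.10.9 were used.

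Members and lists were chosen with earlier results of these data known. Values in every library are given for Cd3e, Cd8a, Foxp3 and Ncr1 and for up to 4 called members with the lowest p per comparison, and other members whose values are given (Lef1 and Nkg7 in the responses, Il7r in the fat pad response and in the difference of responses) were chosen after their values were seen. Of the lists, up to 2 called genes with the lowest p are named, except 1 gene that is not reported here. Constant chains of the T cell receptor were not analysed here.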

Additional observations from a re-analysis of the deposited data

Results flagged for a closer look

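In 70 groups of 5 libraries tested for a library far from the rest, 3 were marked (gap to the nearest value over the range of the group above Dixon's 0.71), about the 1 in 20 that chance gives. Cd3g was at 86.8 TPM in post_Liver 5, where the other post_Liver libraries had 20.3 to 27.8 TPM. Nkg7 was at 105.6 TPM in the same library, with 64.0 to 72.9 TPM in the others. The log2 ratio of Foxp3 to Cd3e was −4.18 in pre_Liver 3, where the other pre_Liver libraries had −2.99 to −2.68.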

How the results depend on the processing

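No call of a member changed direction under any alternative. Cd27, not called in the liver response (0.03 on the log2 scale), was called lower at −1.01 relative to pan-leukocyte genes without post_Liver 5. With 1 library left out, the liver response and the difference of responses kept 0 called members. Among all genes, the number called then varied widely. It was 104 (without pre_Liver 3) to 3982 (without pre_Liver 2) in the liver response. In the difference of responses it was 91 (without pre_SC 3) to 2595 (without pre_Liver 2). Counts of called members below are given as higher and lower. For pre_Liver against pre_SC (2 higher, 4 lower) they were 19 and 1 with median of ratios scaling, 14 and 5 with quantile normalization, 14 and 5 relative to pan-leukocyte genes, 18 and 1 without liver-enriched genes, 20 and 1 with pre_Liver 1 to 3 only, and 23 and 5 in the untreated table as deposited. A pseudocount of 0.1 gave 2 lower, where 4153 of 13483 genes were called lower. Leaving out 1 library gave 1 to 7 higher (7 without pre_Liver 4, where 1750 of 13502 genes were called higher) and 1 to 5 lower. Among all genes, leaving out 1 library gave 1324 to 2275 called higher and 799 to 6961 lower. For post_SC against pre_SC (0 higher, 1 lower), 1 fit of the 4 groups gave 0 lower, no filter 2 lower, pan-leukocyte scaling 4 higher and 0 lower (1 and 0 without post_SC 2), and leaving out 1 library 0 to 3 lower. Among all genes, no filter gave 394 of 17126 called lower, and leaving out 1 library gave 52 to 537. For post_Liver against pre_Liver (0 and 0), pan-leukocyte scaling gave 19 lower, 21 without post_Liver 5 and 0 with pre_Liver 1 to 3, and for the difference of responses 15 lower. For post_Liver against post_SC (1 and 0), pan-leukocyte scaling gave 0 higher and 8 lower, quantile normalization 1 lower, and leaving out 1 library 0 to 1 higher and 0 to 1 lower. Among all genes, quantile normalization called 669 of 13770 lower. Leaving out 1 library called 312 to 1101 genes higher and 93 to 422 lower. Beyond the construction of each alternative, the cause was not tested. Same-numbered libraries did not deviate together in every pair (correlations of deviations of −0.154 to 0.133 in the fat pad and −0.122 to 0.738 in liver), so the numbers are not taken to pair libraries. A replicate block keeps replicates 1 to 3 in the site comparisons. With the block, 18 members were called higher and 1 lower for pre_Liver against pre_SC. Of all 13549 genes tested there, 1696 were called higher and 1857 lower. For post_Liver against post_SC the blocked counts were 0 higher and 1 lower, where 659 and 290 of 13672 genes were called. Nkg7 was then not called (limma adjusted p = 0.0576) and Thy1 was called lower (−1.78, 0.0126). In pre_Liver against pre_SC, Il7r (limma adjusted p = 0.0577), Ikzf2 (0.116) and Eomes (0.0563) were not called with the block. The counts of called members in the other comparisons were as without it. Of all genes, the block called 3068 of 13556 in the liver response and 351 of 13160 in the fat pad. For the difference of responses it called 1426 of 13705. The liver response and the difference of responses against pre_Liver 1 to 3, and pan-leukocyte scaling with libraries left out, were chosen after seeing the data. The number of libraries and unknown depth limit all comparisons.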
